A study of Mus musculus with 69 samples.

Results

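The genes described here were the transporters of organic ions, drugs and lipids whose symbols begin with Slc22a, Slc47a, Slco or Abca to Abcg followed by a number. Of 24523 gene symbols with values, 93 matched and 83 had at least 100 counts over the 65 original kidney libraries. These 83 members comprised 35 uptake carriers (23 Slc22a and 12 Slco genes), 2 Slc47a exporters, 41 transporters of the Abca, Abcb, Abcc, Abcd and Abcg families, 4 Abce and Abcf proteins, and the pseudogene Slc22a13b-ps. The markers given for the group, Slc22a6, Slc22a8 and Abcc2, had counts in every library. RNASeq was performed on whole perfused kidneys of female NZB/W F1 mice, a cross that develops a spontaneous disease like human lupus, so no allele, transgene or agent separated the young from the nephritic mice. Young mice (n = 30) were sampled before disease, and nephritic mice (n = 27) were months older and had fixed proteinuria, so age and nephritis cannot be told apart. Remission mice (n = 8), whose ages overlapped those of the nephritic mice and ran higher, had developed proteinuria, were given CTLA4Ig, anti-CD40L and cyclophosphamide, and had held remission of proteinuria for weeks. Kidneys of young and nephritic mice were taken at Zeitgeber times ZT0 (lights on), ZT4, ZT8, ZT12 (lights off), ZT16 and ZT20, with 3 to 7 mice per group and time, and kidneys of remission mice at ZT0 and ZT12 alone. The young and nephritic mice were sequenced in 2 sets, and the set of each mouse was inferred from the prefix of its title. The remission mice and 4 repeat libraries of young and nephritic mice were treated as a separate run.

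Secretion of drugs and metabolic waste by the proximal tubule is a relay across the cell. Carriers in the membrane facing the blood, such as the organic anion transporters Slc22a6 (Oat1) and Slc22a8 (Oat3) and the organic cation transporter Slc22a2 (Oct2), load the cell, and exporters in the brush border, such as Abcc2 (Mrp2), Abcg2 (Bcrp), the P-glycoproteins Abcb1a and Abcb1b and the proton exchanger Slc47a1 (Mate1), pass the load to the urine. Other ABC proteins move sterols and phospholipids, bile salts, fatty acids into peroxisomes, or compounds across mitochondrial and lysosomal membranes.

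Promoters are printed first for members that carry a circadian motif, since variation over the day is one of the comparisons. Of the 12 organic anion carriers of the Slc22a family, 9 lie on chromosome 19 and 8 of these within a stretch of 955 kb (chr19:7673075-8628299 in GRCm38.p6). Reference promoters around an annotated transcript start were available from RefSeq for 64 members (76 promoters), and both strands were searched for 3 motifs. The circadian E-box, CACGTG, was in 7.15% of 32851 mouse promoters and in 7 of the 76 (9.21%), among them those of Slc22a4 and Abca1. The D-box forms TTATGTAA (0.938% of all promoters) and TTATGCAA (0.743%) were each in 1, that of Slc22a26 and that of Slco1a5. Each promoter is printed on the strand of its gene, for Slc22a4 chr11:54028055-54028354, for Abca1 chr4:53159846-53160145 and for Slc22a26 chr19:7802618-7802917 (all minus strand), with the motif in capitals. Counted from that transcript start, which for Slc22a4 and Abca1 lies inside the outer bounds of the gene, the E-box begins at position -228 in Slc22a4 and -147 in Abca1, and the D-box begins 8 bases past the start of Slc22a26. A match of letters is a description, not evidence of binding.
Slc22a4: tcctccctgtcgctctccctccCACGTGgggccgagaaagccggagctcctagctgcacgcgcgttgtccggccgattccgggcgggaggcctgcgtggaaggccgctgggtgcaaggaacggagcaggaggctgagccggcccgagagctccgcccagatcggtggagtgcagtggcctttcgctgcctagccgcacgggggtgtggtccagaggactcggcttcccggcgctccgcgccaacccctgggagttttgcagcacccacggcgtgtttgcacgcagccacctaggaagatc
Abca1: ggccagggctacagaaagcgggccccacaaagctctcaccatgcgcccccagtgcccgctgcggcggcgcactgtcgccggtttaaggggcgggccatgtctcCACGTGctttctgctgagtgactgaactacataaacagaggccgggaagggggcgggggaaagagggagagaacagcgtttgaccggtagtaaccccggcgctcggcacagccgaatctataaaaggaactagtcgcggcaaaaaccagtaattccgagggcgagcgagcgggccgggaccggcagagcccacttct
Slc22a26: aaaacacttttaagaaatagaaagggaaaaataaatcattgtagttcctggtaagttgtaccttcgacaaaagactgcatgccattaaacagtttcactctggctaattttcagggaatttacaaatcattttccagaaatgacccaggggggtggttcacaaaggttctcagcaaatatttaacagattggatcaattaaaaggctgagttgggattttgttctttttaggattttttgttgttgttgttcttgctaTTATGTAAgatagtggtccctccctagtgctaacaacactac

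Total counts ranged from 25257530 to 35744843 in young mice, from 26596500 to 48075977 in nephritic mice and from 13311278 to 21849912 in remission mice. Proximal tubule genes were abundant in every group, with a summed level of 12720 to 21730 CPM (read counts scaled to the same library total) in young mice, and all 10 were lower in nephritic mice. All 10 genes of a tubular injury list, all 10 macrophage and myeloid genes and all 10 T and B cell genes were higher in nephritic than young mice. Several libraries were high in genes of the adrenal gland or of hepatocytes, and how that RNA came into them was not tested. The sum of 8 adrenal genes passed 100 CPM in 7 young and 1 nephritic libraries, and the sum of 6 hepatocyte genes passed 1000 CPM in 5 young and 2 nephritic libraries, against a median of 179 CPM in young, 178 in nephritic and 9.18 in remission mice. A pair of nephritic ZT4 libraries were closer to each other than any other pair (chi-square per gene 3.58, next 6.82), and 1 remission library labelled ZT12 had 27.01 CPM of the clock gene Arntl, against 3.19 to 4.89 in the other ZT12 remission mice and 23.1 to 28.8 at ZT0. Counts below are also given without the 13 libraries high in adrenal or hepatocyte genes or close to another mouse (10 young and 3 nephritic), which are called the doubtful libraries.

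The first comparison asked how transporter levels differed between nephritic and young kidneys, averaged over the day. Uptake carriers and ABC transporters were both mostly lower in nephritic mice. Of the 35 uptake carriers, 24 were lower and 6 higher at an adjusted p of at most 0.05 (edgeR's quasi-likelihood test with time point and set as covariates), against a background of 33.9% lower and 28.1% higher among 17521 genes. Of the 41 ABC transporters, 24 were lower and 5 higher. The median log2 change was -0.56 for uptake carriers and -0.32 for ABC transporters, and -0.026 for all genes. Without the doubtful libraries, 19 uptake carriers were lower and 6 higher, and 21 ABC transporters were lower and 7 higher, against 27% lower and 27.8% higher among all genes. The range of the nephritic mice overlapped that of the young mice for all 83 members. The share of all genes with such an overlap was not computed. In Set 2 alone (24 young and 22 nephritic mice) 20 uptake carriers and 19 ABC transporters were lower, and many changes were smaller. There Slc22a6 changed by -0.38, Slc22a2 by -0.31, Slc22a5 by -0.31, Slc47a1 by -0.21, Abcc2 by -0.33, Abcc3 by -0.45 and Abcg2 by -0.29, all past the threshold. In whole kidney RNA, fewer cells of a type and less RNA per cell cannot be told apart.

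**Figure D1:**
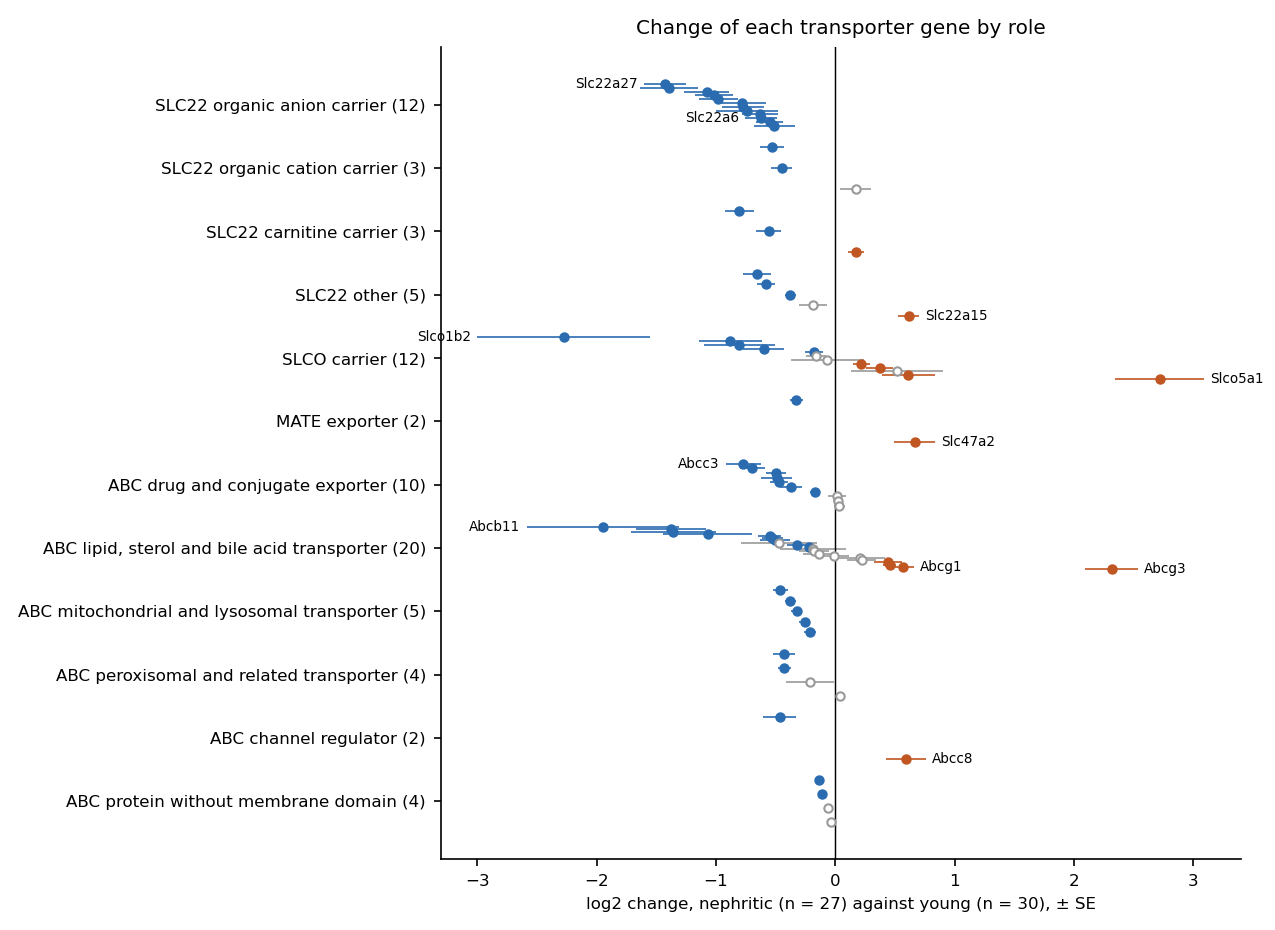
Log2 change of each member in nephritic against young mice, by the role of the transporter, from the fit with time point and set; each point is a gene with its SE, filled where the adjusted p was at most 0.05. All 12 organic anion carriers and all 5 mitochondrial and lysosomal ABC transporters lie below 0, whereas the Slco carriers and the ABC lipid transporters lie on both sides.

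Organic anion carriers of the Slc22a family exchange anionic drugs, urate and metabolites for dicarboxylates. All 12 measured were lower in nephritic mice, against 33.9% of all genes, with a median log2 change of -0.77. Without the doubtful libraries 11 of 12 were lower, against 27% of all genes. There Slc22a19, a carrier of steroid sulfates, had a change of -0.70 (adjusted p = 0.0585). In Set 2 alone 10 of 12 were lower, with Slc22a19 at -0.22 (adjusted p = 0.356) and Slc22a13 at -0.19 (adjusted p = 0.177). Slc22a6 was at 403 to 809 CPM in young mice (median 533). The nephritic mice were at 65.8 to 611 CPM (median 404). No nephritic mouse exceeded the highest young mouse, 22 of 27 were below the young median and 13 were below the lowest young mouse. The change was -0.62 on the log2 scale (SE 0.14, adjusted p = 8.71e-05). Slc22a8, its partner in the membrane facing the blood, ranged from 679 to 1210 CPM (median 920) in young and from 93.2 to 999 (median 734) in nephritic mice. Again 13 of 27 nephritic mice lay below the lowest young mouse, and the change was -0.63 (SE 0.15, adjusted p = 0.000353).

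Slc22a7 (Oat2), a carrier of organic anions and nucleobases, was at 309 to 569 CPM (median 435) in young mice. The nephritic mice were at 9.28 to 496 CPM (median 287). Of the 27 nephritic mice 26 were below the young median and 19 below the lowest young mouse (log2 -0.78, SE 0.20, adjusted p = 0.000639). The urate exchanger Slc22a12 had the highest level per length of exon of all members, with a young mean of 342.7 CPM per kb of exon against 237.1 for Slc22a8, 142.2 for Slc22a6 and 43.4 for Abcg2. Its range was 511 to 1256 CPM (median 753) in young and 122 to 800 (median 592) in nephritic mice, with a change of -0.55 (SE 0.11, adjusted p = 3.98e-05). The 2 members of the family with the largest changes were low in level. Slc22a27 had a median of 3.41 CPM in young and 1.40 in nephritic mice, with every nephritic mouse below the young median (log2 -1.43, adjusted p = 1.03e-09), and Slc22a26 had medians of 14.2 and 5.65 (log2 -1.40, adjusted p = 2.61e-06). Slc22a22, known as a prostaglandin-specific carrier, had medians of 61.8 and 34.5 CPM, and 19 of 27 nephritic mice were below the lowest young mouse (log2 -1.08). Slc22a29 was below the lowest young mouse in 22 of 27 nephritic mice (log2 -0.98), Slc22a28 changed by -1.01, Slc22a30 by -0.77 and Slc22a13 by -0.51. The chromosome 19 genes share high sequence similarity, so the division of reads among Slc22a26, Slc22a27, Slc22a28, Slc22a29 and Slc22a30 is uncertain.

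**Figure D2:**
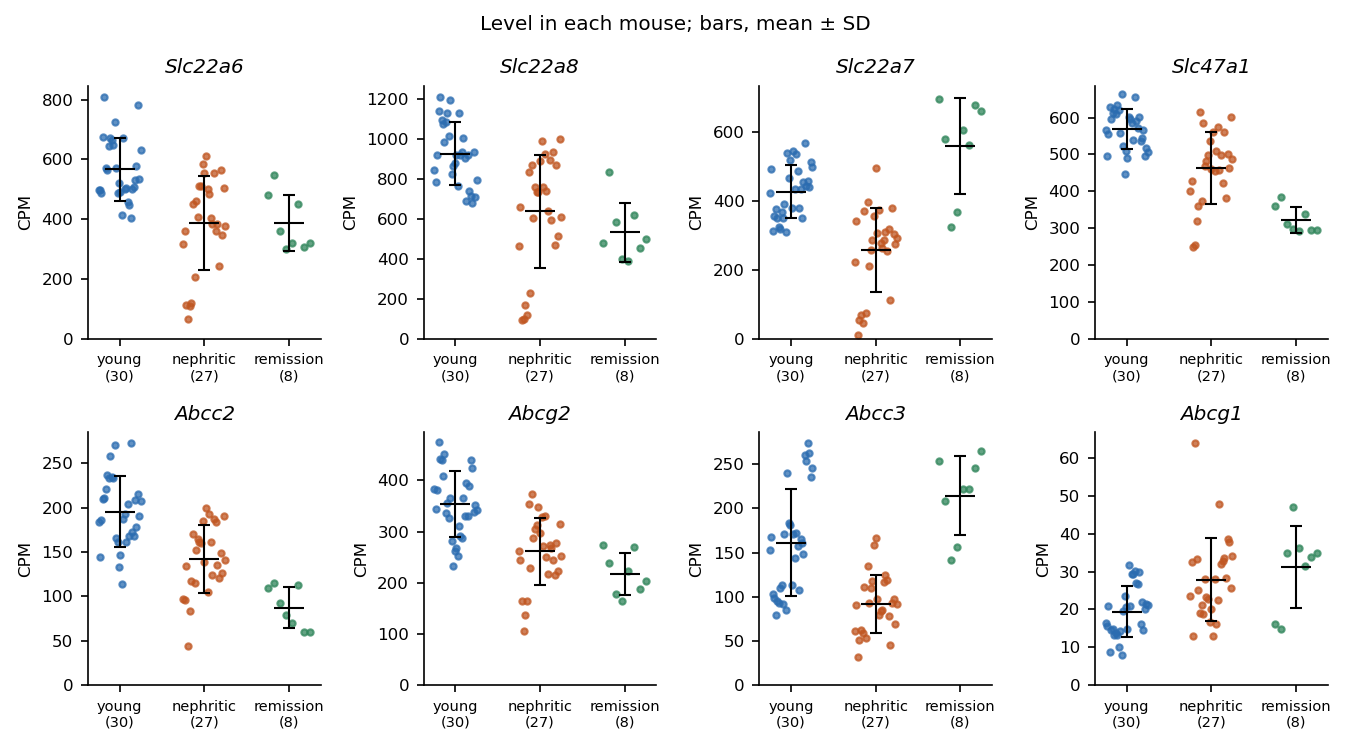
CPM of 8 members in each young, nephritic and remission mouse; each point is a mouse and the bars are mean and SD. Slc22a6, Slc22a8, Slc22a7, Slc47a1, Abcc2, Abcg2 and Abcc3 had lower means in nephritic than young mice and Abcg1 a higher one, and 13 nephritic mice lay below the lowest young mouse for Slc22a6 and for Slc22a8.

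The organic cation carrier Slc22a2 and the cation exporter Slc47a1 were also lower. Slc22a2, which loads the proximal tubule cell with cationic drugs, ranged from 172 to 284 CPM (median 228) in young and from 62.4 to 259 (median 176) in nephritic mice. Only 1 of 27 nephritic mice was above the young median (log2 -0.53, SE 0.10, adjusted p = 7.53e-06). Slc22a3 (Oct3), at a median of 1.503 CPM in young and 1.597 in nephritic mice, had a change of 0.17 (adjusted p = 0.258), and of 0.29 (adjusted p = 0.0455) without the doubtful libraries. Slc47a1, which exchanges cations for protons at the brush border, ranged from 447 to 665 CPM (median 570) in young and from 250 to 614 (median 469) in nephritic mice. It fell by 0.33 (SE 0.057, adjusted p = 2.09e-06), with 9 nephritic mice below the lowest young mouse. Its relative Slc47a2 was barely detected, with medians of 0.263 CPM in young and 0.401 in nephritic mice, and was higher in nephritic mice (log2 0.67, adjusted p = 0.000716).

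Carnitine carriers bring into the cell the cofactor that fatty acid oxidation needs. Slc22a4 (Octn1), which also carries ergothioneine, ranged from 60.3 to 126 CPM (median 85.3) in young and from 16.4 to 97.1 (median 55.9) in nephritic mice. Of 27 nephritic mice, 25 were below the young median and 14 below the lowest young mouse (log2 -0.80, SE 0.13, adjusted p = 2.63e-07). Slc22a5 (Octn2), the main carnitine transporter of the brush border, fell by 0.56 (adjusted p = 1.28e-05). The low Slc22a21 (medians 2.57 and 3.00 CPM) was higher by 0.18 (adjusted p = 0.0174). Without the doubtful libraries its change was 0.18 with an adjusted p of 0.0723. Among the other Slc22a genes, Slc22a15 was higher in nephritic mice, at a median of 5.36 against 3.45 CPM, and 17 of 27 nephritic mice exceeded the highest young mouse (log2 0.62, SE 0.086, adjusted p = 2.63e-08). Slc22a17, a receptor for lipocalin-2, fell by 0.38, Slc22a18 by 0.66 and Slc22a23 by 0.58, and Slc22a14 had a change of -0.19 that did not pass (adjusted p = 0.168).

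Slco carriers (organic anion transporting polypeptides) move bile salts, steroid conjugates, thyroid hormones and prostaglandins. Of 12, 5 were lower (41.7%) and 4 higher (33.3%) in nephritic mice, near the 33.9% and 28.1% of all genes. Without the doubtful libraries 1 was lower and 4 were higher, against 27% and 27.8% of all genes. The carrier lower in both was Slco1a6, the most abundant Slco gene per length. It ranged from 254 to 800 CPM (median 381) in young and from 56.2 to 575 (median 290) in nephritic mice (log2 -0.60, SE 0.17, adjusted p = 0.0023), and 9 nephritic mice were below the lowest young mouse. In Set 2 alone its change was -0.24 and did not pass (adjusted p = 0.13). Slco1a1, Slco1a4 and Slco1b2 were lower in the fit of all libraries, as described below with the hepatocyte genes. The prostaglandin carrier Slco2a1 had a small change of -0.18 (adjusted p = 0.0384) that did not pass without the doubtful libraries (adjusted p = 0.0865) and was 0.016 in Set 2 alone.

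Slco3a1, Slco4a1, Slco5a1 and Slco1a5 were higher in nephritic mice, with and without the doubtful libraries. Slco3a1, a widely expressed prostaglandin and thyroxine carrier, had medians of 72.9 CPM in young and 78.7 in nephritic mice (log2 0.22, SE 0.071, adjusted p = 0.00638). Slco4a1, a thyroid hormone carrier, had medians of 45.5 and 58.7 CPM, and 5 nephritic mice were above the highest young mouse (log2 0.37, adjusted p = 0.0038). The largest rise among the members was that of Slco5a1, an orphan carrier near the limit of detection. It had no count in 15 of 30 young mice and a highest value of 0.172 CPM there, and in nephritic mice it had no count in 2 of 27 and a median of 0.178 CPM. Of the nephritic mice, 14 exceeded the highest young mouse (log2 2.72, SE 0.37, adjusted p = 1.42e-08). Slco1a5 had medians of 0.193 and 0.297 CPM (log2 0.61, adjusted p = 0.0141). Slco4c1, the digoxin carrier of the human proximal tubule, was at medians of 0.559 and 1.21 CPM and did not pass (log2 0.52, adjusted p = 0.244), although it did in Set 2 alone (log2 1.27, adjusted p = 0.00138). Slco2b1 (log2 -0.16, adjusted p = 0.0855) and Slco1c1 (log2 -0.065, adjusted p = 0.863) did not pass. Slco4a1 had a change of 0.28 (adjusted p = 0.0584) in Set 2 alone, and Slco1a5 of 0.28 (adjusted p = 0.49) at ZT0 and ZT12 only.

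ABC exporters of drugs and conjugates, the other side of the relay, were also mostly lower. Of 10 measured, 7 were lower and 0 higher in nephritic mice, with and without the doubtful libraries, and the median log2 change was -0.42. Among all genes 33.9% were lower and 28.1% higher, and 27% and 27.8% without the doubtful libraries. Abcc2, which exports glucuronide and glutathione conjugates at the brush border, ranged from 113 to 273 CPM (median 192) in young and from 43.9 to 199 (median 141) in nephritic mice. Of the nephritic mice 25 of 27 were below the young median, although only 5 were below the lowest young mouse (log2 -0.50, SE 0.087, adjusted p = 2.65e-06). Abcg2, the urate and drug exporter, ranged from 232 to 475 CPM (median 349) in young and from 106 to 373 (median 267) in nephritic mice. It fell by 0.48 (SE 0.075, adjusted p = 3.72e-07), with 24 of 27 nephritic mice below the young median. The P-glycoprotein genes Abcb1a and Abcb1b, which share much of their sequence, fell by 0.37 (adjusted p = 0.00052) and by 0.49 (adjusted p = 0.00106). In Set 2 alone neither passed (log2 -0.17, adjusted p = 0.0581, and -0.24, adjusted p = 0.0715).

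Abcc3 (Mrp3), which returns conjugates towards the blood, had the largest fall among the exporters. It ranged from 79.9 to 274 CPM (median 159) in young and from 32.2 to 167 (median 92.2) in nephritic mice, and 26 of 27 nephritic mice were below the young median (log2 -0.77, SE 0.15, adjusted p = 1.19e-05). Abcc6, whose loss causes ectopic mineralization, had medians of 32.5 and 22.3 CPM (log2 -0.69, adjusted p = 1.46e-07), and Abcc10 fell by 0.17 (adjusted p = 8.83e-05). The 3 exporters that did not pass were Abcc1, Abcc4 and Abcc5. Abcc4 (Mrp4), a brush border exporter of cyclic nucleotides and urate, had medians of 115 CPM in young and 117 in nephritic mice (log2 0.015, SE 0.075, adjusted p = 0.873). Abcc1 had medians of 37.1 and 37.0 CPM (log2 0.019, SE 0.038, adjusted p = 0.675) and Abcc5 of 57.1 and 60.6 CPM (log2 0.035, SE 0.045, adjusted p = 0.509). Abcc1 was higher in Set 2 alone (log2 0.11, adjusted p = 0.0166) and Abcc5 at ZT0 and ZT12 only (log2 0.18, adjusted p = 0.0434).

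ABC transporters of lipids, sterols and bile acids went both ways, with 9 of 20 lower (45%) and 4 higher (20%) in nephritic mice. Among all genes the shares were 33.9% and 28.1%. Without the doubtful libraries 6 were lower and 6 higher, against 27% and 27.8% of all genes. The 4 higher genes were Abca1, Abca7, Abcg1 and Abcg3. Abca1 and Abcg1 load cholesterol onto lipoproteins and are abundant in macrophages. Abcg1 ranged from 7.94 to 31.7 CPM (median 19.9) in young and from 12.9 to 64.0 (median 25.8) in nephritic mice (log2 0.57, SE 0.093, adjusted p = 7.12e-07), and 10 nephritic mice exceeded the highest young mouse. Abca1 had medians of 60.1 and 83.8 CPM (log2 0.44, adjusted p = 0.00104). Abca7, a phospholipid transporter of phagocytes, ranged from 30.3 to 46.1 CPM (median 38.4) in young and from 37.9 to 81.2 (median 51.6) in nephritic mice. Of 27 nephritic mice 26 were above the young median and 19 above the highest young mouse (log2 0.46, SE 0.052, adjusted p = 1.24e-10). Abcg3, a mouse gene related to Abcg2, had a median of 0.206 CPM in young and 1.08 in nephritic mice. All 27 nephritic mice were above the young median and 20 above the highest young mouse (log2 2.32, SE 0.22, adjusted p = 5.46e-13). The 10 macrophage and myeloid genes, of which all were higher, summed to 126 to 262 CPM in young and 301 to 2126 CPM in nephritic mice, and their part in these 4 results was not tested. Among the lower genes, the abundant Abca3, a phospholipid transporter best known from lung surfactant, had medians of 703 and 501 CPM (log2 -0.53, adjusted p = 8.74e-07), and Abca4 had medians of 16.4 and 11.6 CPM (log2 -0.55, adjusted p = 3.71e-06).

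All 5 mitochondrial and lysosomal ABC transporters were lower, against 33.9% of all genes. Abcb6, a porphyrin transporter, ranged from 46.9 to 65.04 CPM (median 54.1) in young and from 19.9 to 53.4 (median 40.9) in nephritic mice, and every nephritic mouse was below the young median (log2 -0.46, SE 0.059, adjusted p = 3.4e-09). Abcb8 and Abcb10, of the inner mitochondrial membrane, fell by 0.38 (adjusted p = 4.21e-10) and by 0.32 (adjusted p = 2.34e-08), and the lysosomal peptide transporter Abcb9 by 0.21 (adjusted p = 0.000591). Of the Abcd genes, Abcd3, of the peroxisomal membrane, fell by 0.43 (adjusted p = 9.33e-05) and Abcd4, which serves lysosomal cobalamin export, by 0.43 (adjusted p = 5.92e-09). Abcd2 (log2 -0.21, adjusted p = 0.374) did not pass. The channel regulators differed in direction, with Abcc8 higher (medians 0.729 and 1.25 CPM, log2 0.59, adjusted p = 0.00212) and Abcc9 lower (10.2 and 7.75 CPM, log2 -0.47, adjusted p = 0.00274). Among the Abce and Abcf proteins, which act in translation and not in transport, Abcf2 fell by 0.11 and Abcf3 by 0.14, while Abce1 (log2 -0.039) and Abcf1 (log2 -0.062) did not pass.

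Members known from hepatocytes followed the libraries high in hepatocyte genes. Slco1b2 (Oatp1b2) and Abcb11, the bile salt export pump, are defining genes of the liver. In the 3 young libraries with the highest sum of hepatocyte genes (12050 CPM at ZT8, 10740 and 10190 at ZT16), Slco1b2 was at 93.2, 62.8 and 49.0 CPM. It was at 0 to 12.7 CPM (median 0.549) in the other 27 young mice, 0 to 7.11 (median 0.469) in nephritic mice and 0 to 0.0496 in remission mice. Abcb11 was at 63.8, 30.8 and 28.1 CPM in the same libraries and at 0 to 11.5 CPM (median 0.446) in the other young mice. For Abca6, Abcb11, Abcb4, Abcg5, Slco1a1 and Slco1b2, each of the 5 young libraries over the hepatocyte level exceeded all 25 others. In the fit of all libraries these genes gave some of the largest falls in nephritic mice. Slco1b2 changed by -2.28 on the log2 scale (adjusted p = 0.00582), and by -1.07 (adjusted p = 0.0716) without the libraries high in hepatocyte genes and by -0.42 (adjusted p = 0.494) without all doubtful libraries. Abcb11 changed by -1.95 (adjusted p = 0.00712) and then by -0.63 (adjusted p = 0.204) and by -0.21 (adjusted p = 0.674). Likewise, the calls of Slco1a1 (log2 -0.81), Slco1a4 (-0.88), Abca6 (-1.07) and the sterol exporter Abcg5 (-1.36) were lost without the libraries high in hepatocyte genes. Abcg8, the partner of Abcg5, changed by -1.38 (adjusted p = 7.12e-05), by -0.68 (adjusted p = 0.00386) without the libraries high in hepatocyte genes and by -0.53 (adjusted p = 0.0309) without the doubtful ones. The phospholipid exporter Abcb4 turned from -0.47 (adjusted p = 0.192) to 0.39 (adjusted p = 0.00751) without the doubtful libraries. The low Abcg4 turned from -0.19 (adjusted p = 0.57) to 0.44 (adjusted p = 0.0437) without the libraries high in adrenal genes.

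**Figure D3:**
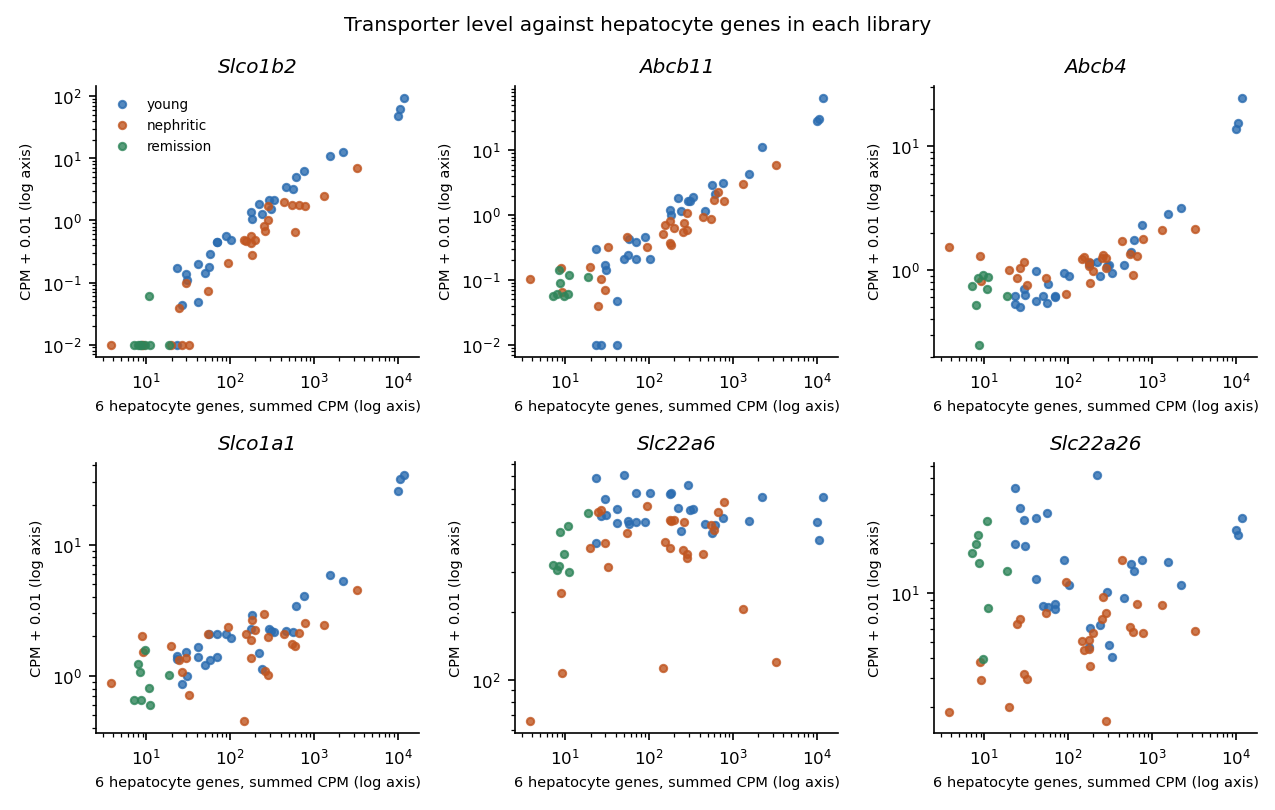
CPM of 6 members, with 0.01 added, against the summed CPM of 6 hepatocyte genes in each mouse, log axes. Slco1b2, Abcb11, Abcb4 and Slco1a1 rise with the hepatocyte genes in the 5 young libraries over 1000 CPM, and Slc22a6 was at 415 to 647 CPM in those 5, within the 403 to 809 CPM of the other 25.

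Within the nephritic group, the markers of the relay were compared with the level of the tubular injury genes, since the nephritic mice ranged from 1931 to 34560 CPM in the sum of those genes, against 1784 to 3100 CPM in young mice. Over 27 nephritic mice, on the log2 scale, Slc22a8 was lower where the injury genes were higher (Pearson r = -0.82, permutation p = 0.00001, the smallest the 100000 permutations can give, adjusted p = 0.00002, Spearman rho = -0.85). For Slc22a6 r was -0.72 (permutation p = 0.00002, adjusted p = 0.0000343, rho = -0.61), and for Abcc2 r was -0.44 (permutation p = 0.0206, adjusted p = 0.0206, rho = -0.49). These were 3 of 6 relations computed, the others being with the proximal tubule genes (r = 0.95 for Slc22a6, 0.96 for Slc22a8 and 0.74 for Abcc2). Without the 2 mice farthest from the median of the injury genes, r was -0.76 for Slc22a8, -0.66 for Slc22a6 and -0.47 for Abcc2. In the 22 nephritic mice of Set 2, r was -0.80, -0.69 and -0.48, and the 5 of Set 1 were too few. A few mice stood apart with the lowest Slc22a6 and Slc22a8, and r over the mice beyond the widest gap was -0.59 for Slc22a6 (23 mice) and -0.73 for Slc22a8 (22 mice). The points share their library and its scaling.

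**Figure D4:**
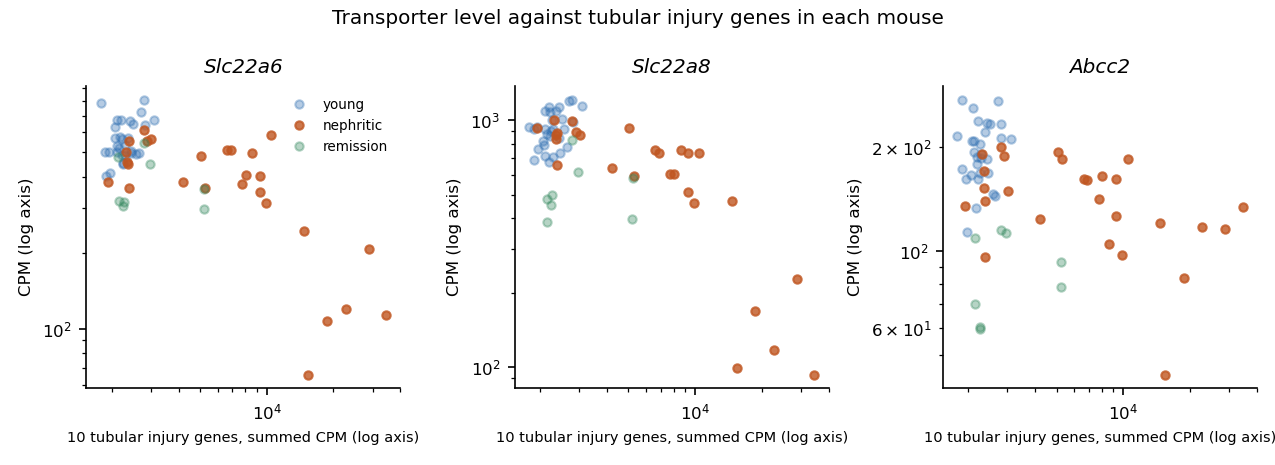
CPM of Slc22a6, Slc22a8 and Abcc2 against the summed CPM of 10 tubular injury genes, log axes, one point per mouse. Young mice lie at the low end of the injury genes (1784 to 3100 CPM), and remission mice range from 2142 to 5227 CPM. Within the 27 nephritic mice the points of Slc22a8 fall along the axis (r = -0.82) more tightly than those of Abcc2 (r = -0.44).

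Genes that support or regulate these transporters were measured from a separate list. Of 20, 17 were lower and 1 higher in nephritic mice, against 33.9% lower and 28.1% higher among all genes. Slc13a3 was on this list and on the proximal tubule list. The 3 with the largest changes were Nr1i3, a xenobiotic receptor best known from liver (log2 -1.33, adjusted p = 0.00227), Ppara, a regulator of fatty acid oxidation (-0.77, adjusted p = 8.3e-07), and Pdzk1. The part of the hepatocyte genes in the change of Nr1i3 was not tested. The scaffold Pdzk1, which anchors several of the exporters at the brush border, changed by -0.75 (adjusted p = 3.44e-08). Hnf4a, which binds promoters of proximal tubule transporters, changed by -0.53 (adjusted p = 6.96e-07). The dicarboxylate carrier Slc13a3, which supplies the gradient that Slc22a6 and Slc22a8 use, changed by -0.74 (adjusted p = 9.12e-05). The gene that was higher was Nfe2l2, an activator of the Abcc exporters, by 0.11 (adjusted p = 0.0129).

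The second comparison asked which members varied over the day in each group. In young mice 51 of 81 members tested varied over the 6 time points, 23 of 33 uptake carriers and 24 of 41 ABC transporters, against 39.8% of all genes. In nephritic mice 17 of 82 varied, 6 of 34 uptake carriers and 9 of 41 ABC transporters, against 21.6% of all genes, and 12 varied in both groups. None of the 12 organic anion carriers varied in nephritic mice, where 9 did in young mice. A difference in time course between the groups, tested directly, passed for 0 of the 12. These counts moved with the libraries. Without the doubtful libraries 8 uptake carriers and 13 ABC transporters varied in young mice, against 18% of all genes, and 24 members in nephritic mice, against 36.1%. Among the 51 members that varied in young mice, the cosine amplitude was lower in nephritic mice for 36. The median ratio of the nephritic to the young amplitude was 0.994 for uptake carriers and 0.559 for ABC transporters. Because members were chosen by their call in young mice, this ratio is a description.

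The following calls over the 6 time points in young mice were kept without the doubtful libraries unless stated, where ZT16 is left with 1 young mouse. Slc22a4, with the E-box, was at 104.5, 109.6, 117.8 and 122.5 CPM at ZT8, its peak, and at 60.3 to 76.8 CPM in the 7 mice of ZT0, and the ranges did not overlap (adjusted p = 1.24e-06). In nephritic mice the 4 mice at ZT8 were at 37.8, 81.4, 85.3 and 97.1 CPM and the 7 at ZT0 at 16.4 to 81.1 (adjusted p = 0.554). Slc22a5 had means of 275 CPM ± 33.01 (SD, n = 4) at ZT8 and 288 ± 52.99 (SD, n = 7) at ZT12 in young mice, against 189 ± 43.9 (SD, n = 7) at ZT0 (adjusted p = 9.87e-06, and 0.484 in nephritic mice). Slc22a6 also peaked at ZT8 in young mice, at 678 CPM ± 34.2 (SD, n = 4) against 452 ± 39.9 (SD, n = 4) at ZT20 (adjusted p = 0.00959, and 0.0578 without the doubtful libraries). In nephritic mice its adjusted p was 0.715, and the SD at ZT12 alone was 188 CPM (n = 6). Of the 7 members with an E-box, 5 of the 6 tested varied over the day in young mice, against 39.8% of all genes and 63% of members, and 2, Slc22a4 and Abca1, did without the doubtful libraries. Abca1 was at 96.3 CPM ± 29.02 (SD, n = 4) at ZT20 and 51.5 ± 3.35 (SD, n = 4) at ZT4 in young mice (adjusted p = 0.000181, and 0.254 in nephritic mice). Slc22a26, with the D-box, did not pass in young mice (adjusted p = 0.24).

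Among the exporters, Abcg2 was highest in the light phase, at ZT4 (408.8, 439.4, 442.4 and 452.5 CPM), and low at ZT16 (251.6, 286.7, 291.7 and 311.9 CPM), in young mice (adjusted p = 3.04e-06). In nephritic mice it was at 288.2, 304.6, 313.2 and 348.7 CPM at ZT4 and did not pass (adjusted p = 0.265). Abcd4 peaked at ZT8 in young mice with 56.9 CPM ± 4.43 (SD, n = 4) against 36.0 ± 2.65 (SD, n = 4) at ZT16 (adjusted p = 1.37e-05). Abcg1 ran in the other phase, lowest at ZT8 (7.94, 10.1, 13.2 and 14.3 CPM) and highest at ZT20 (26.67, 26.99, 29.89 and 30.07 CPM), without overlap (adjusted p = 8.09e-06). It varied in nephritic mice as well (adjusted p = 0.0216), from 19.4 CPM ± 6.57 (SD, n = 4) at ZT8 to 38.7 ± 14.8 (SD, n = 6) at ZT12. Slco3a1 was at 53.4 CPM ± 3.77 (SD, n = 4) at ZT4 and 90.4 ± 19.1 (SD, n = 7) at ZT12 in young mice (adjusted p = 3.86e-07). In the nephritic group it was at 73.7 ± 8.81 (SD, n = 4) and 95.8 ± 15.7 (SD, n = 6) at those times (adjusted p = 0.0391).

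In nephritic mice the largest amplitudes among members that varied were those of Slco1b2 and Abcb11, described above with the hepatocyte genes, followed by Abcd2 and Slc22a3. Abcd2, a peroxisomal importer of very long chain fatty acids known from adipose tissue, was at 1.43, 1.59, 1.91 and 2.11 CPM at ZT4 and at 6.98, 7.38 and 7.77 CPM at ZT20 in nephritic mice (adjusted p = 0.00304). The summed adipocyte genes ranged from 90.3 to 711 CPM in nephritic mice, and all 6 varied over the day there. Their sum was 90.3, 152, 144 and 126 CPM at ZT4 and 537, 594 and 547 CPM at ZT20. The part of the adipocyte genes in the course of Abcd2 was not tested. Slc22a3 was at 0.786, 1.01, 1.05 and 1.39 CPM at ZT8 and at 2.45, 3.54 and 4.11 CPM at ZT20 in nephritic mice (adjusted p = 0.0132). For both genes the groups at these times did not overlap.

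**Figure D5:**
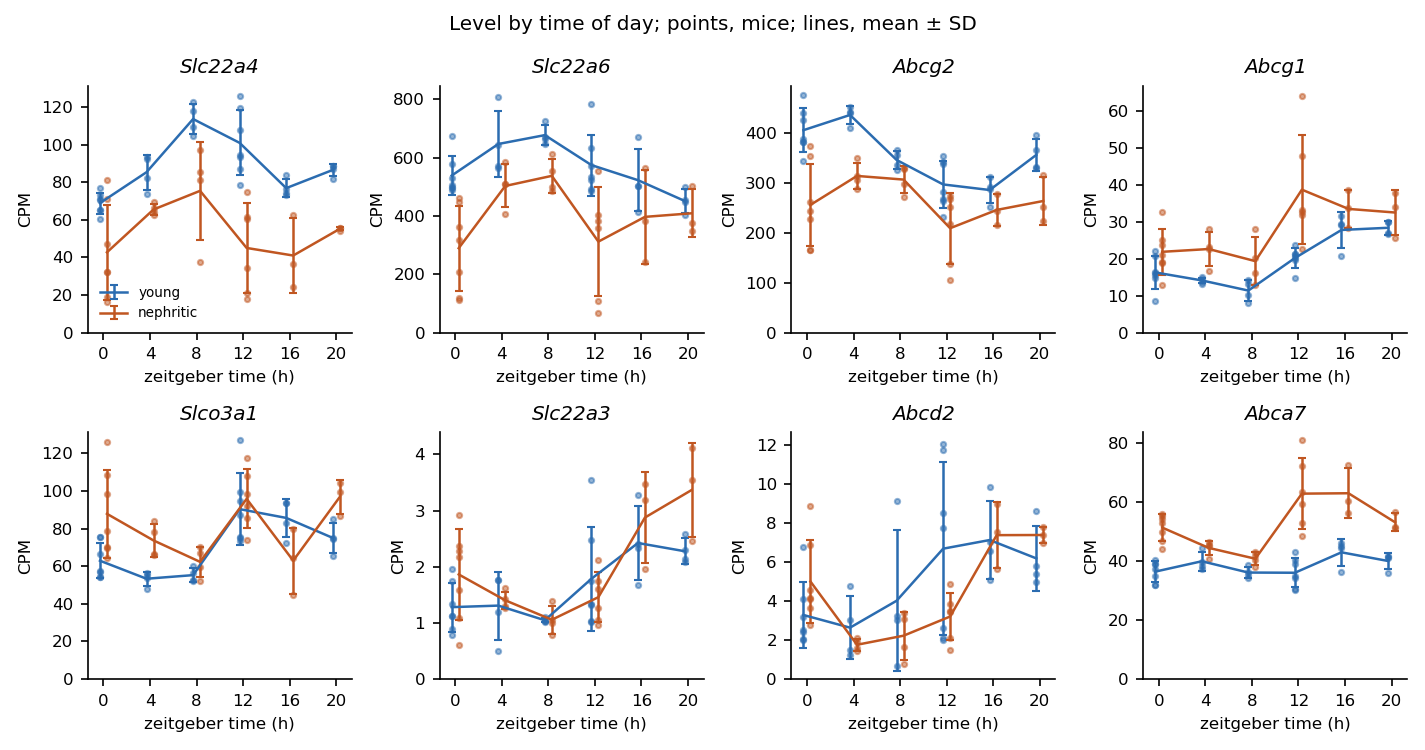
CPM of 8 members in each mouse (points) with mean and SD (lines) at each Zeitgeber time in young (n = 4 to 7) and nephritic (n = 3 to 7) mice. In young mice Slc22a4 and Slc22a6 have their highest mean at ZT8 and Abcg2 at ZT4, and Abca7 has a wider course in nephritic (amplitude 0.29) than young mice (0.073). A difference of the fitted 24 h wave between the groups passed for 0 of 83 members.

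A difference of the time course itself between nephritic and young mice passed for 9 of 83 members, against 6.27% of all genes. They were Abca7 (adjusted p = 0.0142), Slco1a1 (0.0183), Abcb4 (0.0253), Abcg3 (0.0338), Slco1b2 (0.0339), Abcb11 (0.0409), Abcc3 (0.0473), Slco3a1 (0.0483) and Abcb9 (0.0492). Slc22a4, Slc22a6 and Abcg2 varied in young and not in nephritic mice, but a difference in time course was not shown for them (adjusted p = 0.53, 0.49 and 0.49). Slco1a1, Slco1b2, Abcb4 and Abcb11 were among the members that followed the hepatocyte genes, and without those libraries 1 member passed, Abca7 (adjusted p = 0.0299). Abca7 was at 34.4, 35.5, 36.2 and 38.6 CPM at ZT8 and 36.3, 44.4, 45.2 and 46.1 CPM at ZT16 in young mice. In nephritic mice it was at 37.9, 40.5, 41.8 and 43.1 CPM at ZT8 and at 56.2, 60.4 and 72.6 CPM at ZT16, and the times did not overlap. On the log2 scale its cosine amplitude in nephritic mice was 0.29 (SE 0.052), against 0.073 (SE 0.042) in the young group. Tested as a 24 h cosine and sine in edgeR, a difference between the groups passed for 0 of 83 members, so not for Abca7. The T and B cell genes also moved over the day, with 10 of 10 varying in nephritic mice and 7 of 10 differing in time course between the groups, as did 1 of 10 macrophage and myeloid genes in each test. Their part in the courses of Abca7 and Abcg3 was not tested.

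The third comparison set remission mice beside the nephritic and young mice of ZT0 and ZT12 (13 nephritic and 14 young). Remission libraries were treated as a separate run, so group and run cannot be told apart except through the 4 repeat libraries. The comparisons share the remission mice and 1 estimate of the spread. Against nephritic mice 17 of 82 members were higher and 18 lower in remission, with 17% of all genes higher and 20.5% lower. Against young mice 8 were higher and 29 lower, with 21.2% of all genes higher and 20.4% lower. With a run covariate bridged by the repeat libraries, 7 members were higher and 9 lower against nephritic mice (9.37% and 14.2% of all genes). Against young mice 2 were then higher and 10 lower (6.88% and 6.94%). In every fit with a run covariate, the original and repeat libraries of a mouse entered as separate samples, with no term for the mouse. Those mice were thus counted as if independent, which limits the adjusted p-values of these fits. One of the 4 repeats, of a nephritic ZT12 mouse, differed from its original more than the others did (chi-square per gene 66.6, against 12.8 to 21.9), and with the other 3 as the bridge the counts were 8 and 5 against nephritic (8.07% and 13.2% of all genes), and 1 and 9 against young mice (4.7% and 5.3%). Without the remission library labelled ZT12 that had a ZT0 level of Arntl, the counts were 16 and 17 against nephritic, and 7 and 26 against young mice.

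Of the 12 organic anion carriers, 4 were higher and 0 lower in remission than nephritic mice. They were Slc22a7, Slc22a13, Slc22a19 and Slc22a26, whose calls were lost in 0, 3, 12 and 1 of the 18 alternatives run. Of the 10 drug exporters 2 were higher and 4 lower, with 17% of all genes higher and 20.5% lower. The calls of Abcc1 and Abcc3 (higher) were lost in 3 and 0 alternatives. Those of Abcc2, Abcc5, Abcc6 and Abcc10 (lower) were lost in 2, 0, 2 and 0. Against young mice 0 anion carriers were higher and 5 lower, and 1 exporter was higher and 6 lower. The shares of all genes there were 21.2% higher and 20.4% lower. The difference between the classes was not tested. Of 10 proximal tubule genes 6 were lower and 0 higher in remission than young mice (median -0.66), and all 10 macrophage and myeloid and all 10 T and B cell genes were higher (medians 2.35 and 4.07). All 6 endothelial genes were higher than in nephritic mice. The summed proximal tubule genes were at 9683 to 14560 CPM in remission mice, and the part of these genes in the changes below was not tested. Slc22a7 ranged from 325 to 695 CPM with a median of 593 in remission mice, and all 8 were above the nephritic median of 287. It was higher than in nephritic mice by 1.36 on the log2 scale (SE 0.38, adjusted p = 0.00587), and by 1.76 (adjusted p = 0.0241) with the run covariate. Against young mice its difference did not pass (log2 0.15, SE 0.41, adjusted p = 0.797). Slc22a26 and Slco1a6 were also higher than in nephritic mice (log2 1.59, adjusted p = 0.00159, and 0.98, adjusted p = 0.0139), with and without the run covariate (1.55, adjusted p = 0.0471, and 1.34, adjusted p = 0.0317). With the bridge of 3 repeats the call of Slc22a26 was lost (adjusted p = 0.096), and Slc22a7 (1.89, adjusted p = 0.0415) and Slco1a6 (1.66, adjusted p = 0.026) passed. The call of Slco1a6 was lost in 2 of the 18 alternatives run, over which its change was 0.63 to 1.66. Slc22a6 and Slc22a8 were not higher by the test. Slc22a6 ranged from 300 to 547 CPM (median 341) in remission mice, with 7 of 8 below the young median (log2 0.29, adjusted p = 0.416 against nephritic, and -0.67, adjusted p = 0.0575 against young mice). Slc22a8 ranged from 387 to 833 CPM (median 489), with all 8 below the young median (log2 -0.05, adjusted p = 0.919 against nephritic, and -0.91, adjusted p = 0.0284 against young mice). With the run covariate the difference of Slc22a8 from young mice was -0.79 (adjusted p = 0.218).

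Abcc2 was lower in remission than in both other groups. It ranged from 59.4 to 115 CPM (median 85.8) in remission mice, and 7 of 8 were below the lowest young mouse. The change was -1.12 (SE 0.19, adjusted p = 1.99e-05) against young and -0.60 (adjusted p = 0.00923) against nephritic mice, and with the run covariate -1.09 (adjusted p = 0.00114) and -0.62 (adjusted p = 0.0515). With the bridge of 3 repeats they were -0.97 (adjusted p = 0.00855) and -0.46 (adjusted p = 0.21). Slc47a1 ranged from 292 to 383 CPM (median 304), and all 8 remission mice were below the lowest young mouse (log2 -0.82, SE 0.13, adjusted p = 4.06e-06, and -0.77, adjusted p = 0.000489 with the run covariate). Against nephritic mice it changed by -0.47 (adjusted p = 0.00266), by -0.42 (adjusted p = 0.0469) with the run covariate and by -0.33 (adjusted p = 0.181) with the bridge of 3 repeats, where the difference from young mice was -0.70 (adjusted p = 0.00453). Abcc6, at a median of 12.3 CPM, was below the lowest young mouse in 8 of 8 remission mice (log2 -1.34, adjusted p = 4.48e-06), and Abcc10 changed by -0.47 (adjusted p = 2.11e-06) and Abcd4 by -0.64 (adjusted p = 3.57e-05) against young mice. All 3 calls held with the run covariate, by 4 or 3 repeats. Abcg2 had a median of 214 CPM with all 8 remission mice below the young median (log2 -0.74, adjusted p = 0.000489), and with the run covariate its difference was -0.47 (adjusted p = 0.145).

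Abcc3 went the other way. It ranged from 142 to 265 CPM (median 223) in remission mice, all 8 above the nephritic median of 92.2. The difference from nephritic mice was 1.38 (SE 0.23, adjusted p = 2.15e-05), and 1.502 (adjusted p = 0.00263) with the run covariate. Abca4 (log2 0.85, adjusted p = 0.000385), Abcb6 (0.54, adjusted p = 0.000903) and Abcb8 (0.28, adjusted p = 0.0148) were also higher than in nephritic mice with and without the run covariate. Of the genes that were higher in nephritic mice, Abca1 was lower in remission than in nephritic mice by 0.86 (log2 -0.86, adjusted p = 0.00165) with all 8 remission mice below the nephritic median. Abcg3 was still above young mice (log2 1.81, adjusted p = 0.00106), at a median of 0.594 CPM, as was Abcg1 (log2 0.90, adjusted p = 0.000723), at a median of 34.4 CPM, both also with the run covariate by 4 repeats, and by 3 repeats Abcg3 (adjusted p = 0.0205) but not Abcg1 (adjusted p = 0.122). Abcc5, whose change between nephritic and young mice did not pass, was lower in remission than in nephritic mice (log2 -0.54, adjusted p = 0.00017), as was Slc22a21 (log2 -0.55, adjusted p = 0.000757). The pseudogene Slc22a13b-ps, nearly identical to Slc22a13 and so uncertain, had the lowest p against nephritic mice (log2 -1.54, adjusted p = 1.24e-06), at medians of 0.476 CPM in remission, 1.03 in nephritic and 1.15 in young mice. Slco1b2 had no count in 7 of 8 remission libraries and Abcb11 was at 0.0458 to 0.132 CPM, and no remission library was high in hepatocyte or adrenal genes.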

How the data were processed

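Polyadenylated RNA of whole kidneys was sequenced, and the authors deposited unnormalized read counts by gene symbol for 65 original and 4 repeat libraries. The study's methods name Burrows-Wheeler alignment and counting of unique reads, the submitters' processing notes name HISAT and mm10, and no strand setting is given in the sources used here. Of 24538 symbols, 15 with empty cells were left out. Groups and time points came from the labels; the set of each mouse was inferred from the prefix of its title, since the sources used here give sets only as numbers of mice.

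A fit kept genes whose counts summed to 100 or more over its samples. TMM scaling, edgeR 4.0.16 (quasi-likelihood F test, R 4.3.3) and Benjamini-Hochberg adjustment over all genes followed, with time point and set as covariates. Amplitudes are of a 24 h wave fitted to log2 CPM (prior count 2). DESeq2 1.42.0 was an alternative. Correlations used two-sided permutation tests. Values per kb divide CPM by the union of annotated exons. Counts were also simulated with effects of size 0.5 on the log2 scale. Among 17475 genes, 151 of 198 changed ones were found for nephritic against young mice. For a time course that differed between the groups, 99 of 200 were found, and there the size need not equal a change in level. These shares hold for the simulated spread only. Recovery in the real libraries, some of them high in adrenal or hepatocyte genes, was not measured and may be lower.

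Members and lists were chosen with earlier results of these data known. Genes were named where they are known from renal drug handling, where they were among the largest changes (8 each way), amplitudes (6 a group), smallest p in remission (6 a comparison) or different rhythms (up to 10), and where a role had up to 5 members (some are not reported here); 3 of a list were named by size of change. Slc22a28, Slc22a29, Slc22a30, Slco1a4, Slco2b1, Slco1c1, Abca3, Hnf4a, Slc13a3 and Nfe2l2 were added after their values were seen, as were the hepatocyte list and the alternatives without doubtful libraries or with 3 repeat libraries as the bridge. Labels do not say whether mice shared litters or days, so p-values measure the spread between these mice. Microarray samples and C57BL/6 mice were not analysed here.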

Additional observations from a re-analysis of the deposited data

Results flagged for a closer look

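A difference between the time courses of nephritic and young mice flagged 9 members. The adjusted p (edgeR) of the group by time terms was 0.0142 for Abca7, 0.0183 for Slco1a1, 0.0253 for Abcb4, 0.0338 for Abcg3, 0.0339 for Slco1b2, 0.0409 for Abcb11, 0.0473 for Abcc3, 0.0483 for Slco3a1 and 0.0492 for Abcb9. For Slco1a1, Abcb4, Slco1b2 and Abcb11 the adjusted p was 0.301, 0.95, 0.486 and 0.534 without the libraries high in hepatocyte genes.

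Single mice stood apart from the others in 6 of 111 groups of 4 to 8 mice examined, where chance flags about 1 in 20. Each such group was 1 gene in the young or nephritic mice of 1 time point, or in all 8 remission mice together. Abca7 was 36.08 CPM in the lowest young mouse of ZT20 (next 40.98). Abcg3 was 4.29 CPM in the highest nephritic mouse of ZT12 (next 1.679), 0.5457 in the highest young mouse of ZT0 (next 0.2597) and 0.3921 in the highest young mouse of ZT20 (next 0.1702). Abcb9 was 13.1 CPM in the lowest young mouse of ZT16 (next 14.74) and 12.01 in the lowest of ZT20 (next 14.91).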

How the results depend on the processing

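The counts of uptake carriers and ABC transporters higher or lower in nephritic than young mice stayed within 1.5 times their values under all alternatives run. The counts over the day did not. In young mice, 13 (without the libraries high in hepatocyte genes) and 8 (without the doubtful libraries) uptake carriers varied, and 15 (without the libraries high in adrenal genes) and 13 (without the doubtful ones) ABC transporters. In nephritic mice, uptake carriers numbered 10 with DESeq2, 3 without the set covariate, 2 with a cosine and sine, and 14 without the libraries high in hepatocyte genes, and ABC transporters 5 with a cosine and sine and 17 without the libraries high in hepatocyte genes. A different rhythm was called for 15 members with DESeq2, 0 with a cosine and sine in edgeR (21 of 83 at an unadjusted p under 0.05), 1 without the libraries high in hepatocyte genes and 4 without the doubtful libraries. Leaving out 1 mouse at a time gave 3 to 11 members with a different rhythm (5 or fewer without any of young replicates 1, 2, 3, 5, 17, 19, 25 and 28 or nephritic replicates 4, 10, 11, 12, 13, 14, 15, 22 and 24), 19 to 25 uptake carriers and 20 to 25 ABC transporters over the day in young mice, and 3 (without nephritic replicate 22) to 8, and 7 to 10, in nephritic mice.

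In remission, members higher than in nephritic mice numbered 11 without the libraries high in adrenal genes, 9 without the doubtful libraries, 7 with the run covariate and 8 with that bridged by 3 repeats (14 to 18 leaving out each mouse), and members lower 9 with the run covariate and 5 by 3 repeats (15 to 18). Members higher than in young mice numbered 13 against Set 2 alone and 2 with the run covariate, 1 by 3 repeats (7 to 9), and members lower 10 with the run covariate, 9 by 3 repeats (24 to 31).

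Directions turned in the level of Slco2a1 (0.016 in Set 2 alone), Abcc1 (-0.010 without the libraries high in hepatocyte genes, -0.001 without the doubtful ones, -0.004 at ZT0 and ZT12 only), Abcc4 (-0.016, -0.052 and -0.044 without the libraries high in adrenal genes, in hepatocyte genes, and without the doubtful ones), Abcd2 (0.165 without the doubtful ones), Abcg4 (0.440 and 0.512 without the libraries high in adrenal genes and the doubtful ones) and Abcb4 (0.278, 0.389 and 0.480 without the libraries high in hepatocyte genes, without the doubtful ones, and at ZT0 and ZT12 only). In remission against nephritic mice they turned for Slc22a8 (0.096 with the run covariate, 0.318 by 3 repeats, 0.003 and 0.002 without remission replicates 4 and 5, and down to -0.170 without the others) and Abcg2 (0.107 with the run covariate, 0.337 by 3 repeats), and against young mice for Slc22a7 (-0.033 and -0.096), Abcc3 (-0.065 and -0.098) and Abcg4 (0.030 and 0.019) without the libraries high in adrenal genes and the doubtful ones, and Abcg5 (0.217 with the run covariate, 0.454 by 3 repeats). Other causes of these differences were not tested. The labels give no replicate numbers and name a different mouse for each of the 65 original libraries, so no pairing existed among those. The numbers used here name different animals within each group, except that the 4 repeat libraries came from mice that also had an original. Those pairs were not fitted as pairs. Remission libraries were the shallowest, and members under about 1 CPM rest on few counts there.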
